A study of Mus musculus with 6 samples.

Results

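The Serpina1 antitrypsin family of the mouse comprises Serpina1a, Serpina1b, Serpina1c, Serpina1d and Serpina1e, which were taken by name from the gene tables of a newborn intestine experiment, 5 genes of 54532 in all. Each name had 1 row, so the total count, the only measured value in the selection (the row with most counts where a name is repeated), chose nothing. RNA came from intestine of newborn C57BL/6 mice, an inbred laboratory strain, and the groups were NECA for 5 days (3 libraries) and DMSO (3 libraries). NECA is an adenosine analogue that activates several adenosine receptor subtypes, and DMSO is its solvent. The series title places the work in necrotizing enterocolitis, a bowel disease of newborns, and in myeloid-derived suppressor cells. Which stretch of bowel was taken, how NECA was given and whether each library is 1 animal is not stated in the labels, so p-values measure the spread between these libraries only.

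Alpha-1-antitrypsin is a secreted serpin, a suicide inhibitor that offers a flexible reactive-site loop to a serine protease and traps the enzyme that cuts it. Its best known target is neutrophil elastase. The liver is the main source, and intestinal epithelium makes it as well. Humans carry a single gene, whereas mice carry tandem copies whose differences are densest in the reactive-site loop, the part that selects the protease.

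The 5 copies lie head to tail on the minus strand of chromosome 12 (GENCODE M21, GRCm38). In order along the chromosome they are Serpina1b (ENSMUSG00000071178, 103728156 to 103830373), Serpina1d (ENSMUSG00000071177, 103763594 to 103773592), Serpina1a (ENSMUSG00000066366, 103853589 to 103863562), Serpina1c (ENSMUSG00000079015, 103894926 to 103904887) and Serpina1e (ENSMUSG00000072849, 103946931 to 103958975). The annotated Serpina1b locus is long because 1 of its 4 transcripts starts far upstream, and it encloses Serpina1d on the same strand. The antisense gene B430119L08Rik overlaps Serpina1c and had 0 to 3 counts in NECA libraries and 1 to 4 in DMSO libraries.

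The coding sequences are 1239 bases long in each copy and 96.3% to 98.5% identical in pairs. The closest pair is Serpina1a and Serpina1c, with 19 differing bases, and the most distant pairs, Serpina1b with Serpina1e and Serpina1d with Serpina1e, differ at 46. Of the 1239 aligned positions 86 vary (6.94%), and the 60-base window with the most variable positions holds 18 of them (30%). This window, coding bases 1101 to 1160 in the last coding exon, encodes the reactive-site loop, and it is shown because it is where the copies are told apart. Capitals mark bases that fewer than 3 of the 5 copies share. Sequences are from the GENCODE M21 transcripts, 5′ to 3′ in the direction of the gene, at chr12:103853757-103853816 for Serpina1a, chr12:103728324-103728383 for Serpina1b, chr12:103895094-103895153 for Serpina1c, chr12:103763762-103763821 for Serpina1d and chr12:103947100-103947159 for Serpina1e (GRCm38, minus strand).
Serpina1a: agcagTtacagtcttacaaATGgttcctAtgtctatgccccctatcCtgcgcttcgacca
Serpina1b: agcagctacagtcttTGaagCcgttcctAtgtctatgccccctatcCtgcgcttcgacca
Serpina1c: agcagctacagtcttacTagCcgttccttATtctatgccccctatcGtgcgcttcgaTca
Serpina1d: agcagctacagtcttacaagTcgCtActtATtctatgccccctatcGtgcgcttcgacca
Serpina1e: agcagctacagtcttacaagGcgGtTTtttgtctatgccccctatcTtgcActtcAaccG

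How far reads can be assigned to 1 copy follows from these differences. Of all 100-base windows in the annotated transcripts of a copy, 85.6% of those of Serpina1e and 85.2% of those of Serpina1b occur in the transcripts of no other gene. The share is 70.7% for Serpina1d, 57.2% for Serpina1a and 41.5% for Serpina1c. Within the coding sequence alone the share is 80.9% for Serpina1e, 70% for Serpina1b and 66.7% for Serpina1d. It is lowest there for Serpina1c (38.2%) and Serpina1a (35.7%). Read length and the handling of multi-mapping reads were not known here, so the split between copies is uncertain, and the sum of the 5 counts is given beside it.

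**Figure D1:**
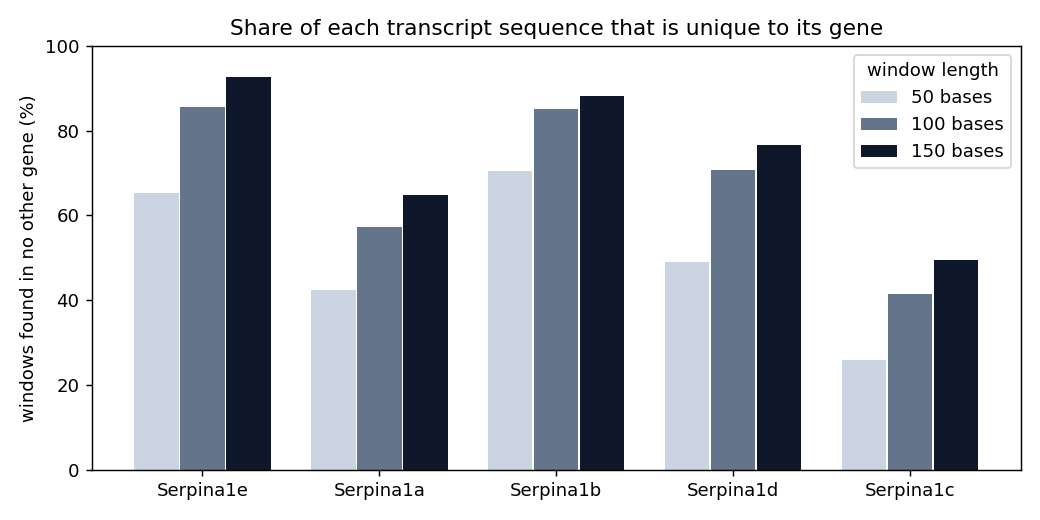
Share of sequence windows (y axis, %) in the annotated transcripts of each Serpina1 copy (x axis) that occur in no other gene's transcripts, for windows of 50, 100 and 150 bases (bars). Serpina1e and Serpina1b have the largest unique share at 100 bases, 85.6% and 85.2%, and Serpina1c the smallest, 41.5%.

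The regions just upstream were less alike than the coding sequences in most pairs. RefSeq promoter windows (250 bases before to 50 after the start, GRCm38.p6) were found for all 5 copies and were 91.7% to 98.4% identical in pairs, with Serpina1b and Serpina1e the most alike (4 differing bases among 248 aligned). Each holds the letters GTTAAT in the direction of the gene. On either strand, 7.10% of all 32851 promoter windows hold these letters. The letters AAAGTCC, from the HNF4 recognition sequence, were on either strand in 4.21% of all windows and in none of the 5. A search for TATAAA, a core promoter element, found it in 13.6% of all windows and in none of the 5. The stretch around GTTAAT (capitals), shown because copies with nearly the same upstream sequence had opposite levels in 1 library, is at chr12:103863595-103863714 for Serpina1a, chr12:103738170-103738289 for Serpina1b, chr12:103904932-103905051 for Serpina1c, chr12:103773604-103773723 for Serpina1d and chr12:103956930-103957049 for Serpina1e (GRCm38.p6, minus strand, 5′ to 3′ along the gene).
Serpina1a: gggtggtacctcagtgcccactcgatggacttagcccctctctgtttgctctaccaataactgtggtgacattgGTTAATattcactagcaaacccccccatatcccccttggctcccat
Serpina1b: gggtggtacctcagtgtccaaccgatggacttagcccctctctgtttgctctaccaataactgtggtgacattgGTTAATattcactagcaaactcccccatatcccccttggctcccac
Serpina1c: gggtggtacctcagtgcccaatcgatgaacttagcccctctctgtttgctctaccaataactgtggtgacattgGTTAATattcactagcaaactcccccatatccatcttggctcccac
Serpina1d: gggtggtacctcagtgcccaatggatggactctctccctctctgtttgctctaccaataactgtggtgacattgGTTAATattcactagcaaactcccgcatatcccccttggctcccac
Serpina1e: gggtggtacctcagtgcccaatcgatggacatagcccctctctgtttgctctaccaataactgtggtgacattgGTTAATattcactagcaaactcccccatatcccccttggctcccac
In these 120 bases Serpina1b and Serpina1e differ at 3 positions, Serpina1a and Serpina1e at 4, and Serpina1a and Serpina1b at 5. Only the RefSeq start of each copy was compared, while the annotation holds 4 transcripts of Serpina1b, 3 of Serpina1a and 2 of Serpina1e. Which start was used in each library was not measured.

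The libraries held 15531996 to 18065078 counts. NECA replicate 2 stood apart, its median correlation across genes with the remaining libraries being 0.944, against 0.971 to 0.986 for each of those (genes are not independent replicates). The tissue label was met by epithelial genes, with Epcam at 1464 to 1717 TMM-normalised CPM (counts scaled by library size) in NECA libraries and 1359 to 1667 in DMSO libraries. In bulk tissue, fewer cells of a type and less RNA per cell cannot be told apart.

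The family was an abundant product of this newborn bowel. The summed counts were 6707, 2119 and 8093 in NECA replicates 1 to 3 and 9219, 9887 and 11513 in DMSO replicates 1 to 3. The sums amounted to 433, 106 and 465 CPM in NECA and 514, 662 and 720 CPM in DMSO, or 335 ± 199 and 632 ± 106 CPM (SD, n = 3 each). All 3 NECA libraries lay below all 3 DMSO libraries, with NECA replicate 2 far below the rest. The same holds in the direction of lower NECA values for 7.16% of all 15847 tested genes, and in that of higher NECA values for 6.49%.

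Serpina1e carried most of the family in every library but NECA replicate 2. NECA replicates 1 to 3 had 319.7, 5.33 and 345 CPM, DMSO replicates 1 to 3 had 342, 395 and 464 CPM, and the groups overlapped, since NECA replicate 3 lay above DMSO replicate 1. By FPKM (fragments scaled by gene length and library size) it stood between rank 142 and rank 235 of all genes in 5 libraries and at rank 8988 in NECA replicate 2. Its level in that library was 59.9-fold below the lowest of the other 5 libraries.

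Serpina1a was second in level in those 5 libraries. NECA replicates 1 to 3 had 99.9, 1.15 and 101 CPM, and DMSO replicates 1 to 3 had 156, 254 and 214 CPM. Every NECA library lay below every DMSO library, as in 7.16% of all tested genes. The same held with NECA replicate 2 set aside, as in 12% of the genes tested then. The counts behind these values were 1546, 23 and 1761 in NECA and 2787, 3803 and 3423 in DMSO. In NECA replicate 2 the level was 87.1-fold below the lowest of the other 5 libraries.

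Serpina1b showed the opposite order. NECA replicates 1 to 3 had 12.4, 96.8 and 17.1 CPM, against 14.8, 9.57 and 38.2 CPM in DMSO replicates 1 to 3. NECA replicate 2 was highest, 2.53-fold above DMSO replicate 3, and the remaining NECA libraries lay within the DMSO range. The 1942 Serpina1b counts of NECA replicate 2 compare with 143 to 611 in the other 5 libraries.

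Serpina1d and Serpina1c were near the limit of detection. Serpina1d had 15, 31 and 11 counts in NECA and 27, 16 and 35 in DMSO, and Serpina1c had 7, 16 and 19 counts in NECA and 12, 24 and 15 in DMSO. In both genes the groups overlapped and NECA replicate 2 lay inside the range of the others, so neither was low there as Serpina1a and Serpina1e were.

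**Figure D2:**
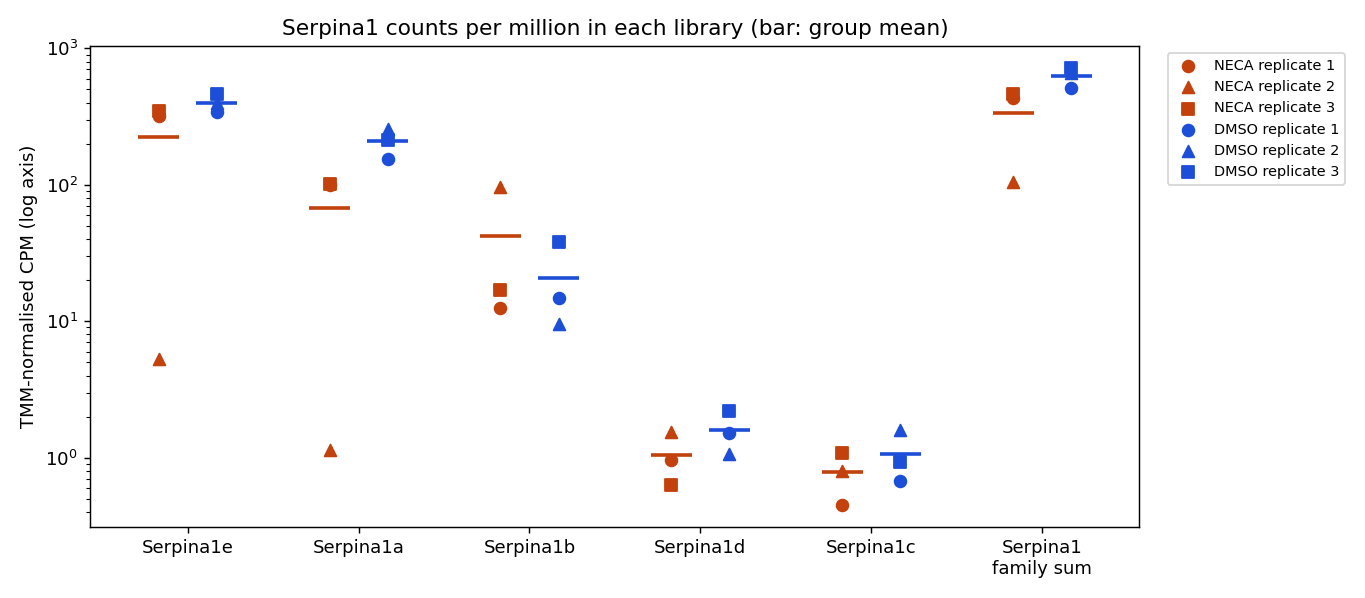
TMM-normalised CPM (y axis, log scale) of each Serpina1 copy and of their sum (x axis) in 3 NECA and 3 DMSO libraries, with symbols for the replicate number and a horizontal bar for the group mean. NECA replicate 2 has 5.33 CPM of Serpina1e and 1.15 CPM of Serpina1a but 96.8 CPM of Serpina1b.

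The make-up of the family therefore differed between libraries more than its sum. Serpina1b held 91.6% of the family counts in NECA replicate 2 (exact 95% binomial interval 90.4% to 92.8%, for counting error only, since amplified reads are not independent molecules). In the other libraries it held 2.86% and 3.67% (NECA replicates 1 and 3) and 2.89%, 1.45% and 5.31% (DMSO). Serpina1e held 73.8%, 5.05% and 74.2% in NECA and 66.5%, 59.7% and 64.5% in DMSO. Serpina1a held 23.1%, 1.09% and 21.8% in NECA and 30.2%, 38.5% and 29.7% in DMSO. The ratio of Serpina1e to Serpina1a counts was 3.20, 4.65 and 3.41 in NECA and 2.20, 1.55 and 2.17 in DMSO, so that the groups did not overlap in it. This ratio was noticed in these data and is given with no test, and how often ratios of other genes part the groups was not measured.

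**Figure D3:**
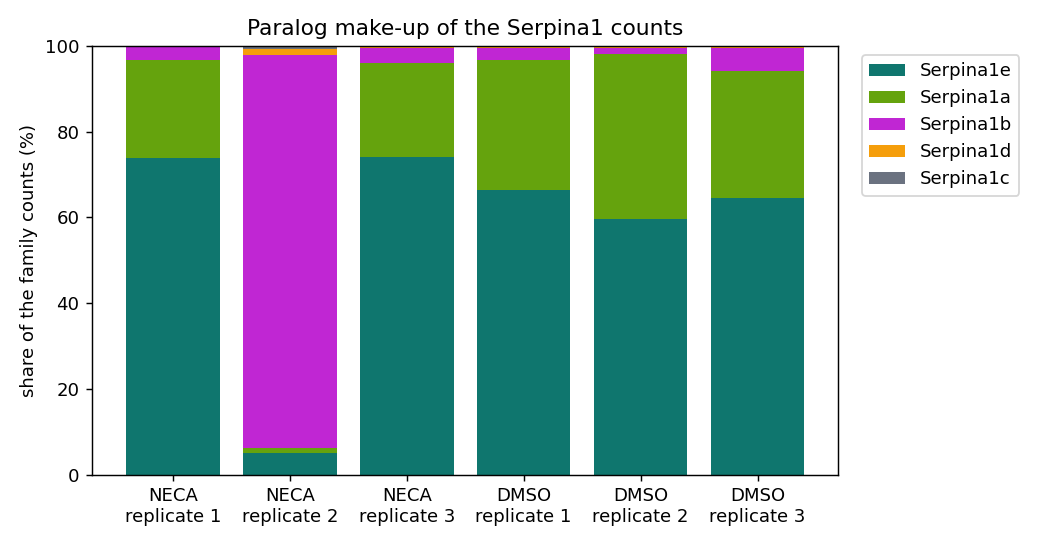
Share of the summed Serpina1 counts (y axis, %) taken by each copy (colours) in the 3 NECA and 3 DMSO libraries (x axis). Serpina1b takes 91.6% in NECA replicate 2 and at most 5.31% elsewhere.

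Levels of different genes were compared per length, on the FPKM scale. The FPKM levels in NECA averaged 138 ± 117 for Serpina1e, 36.9 ± 31.4 for Serpina1a, 17.3 ± 19.4 for Serpina1b, 0.750 ± 0.325 for Serpina1d and 0.571 ± 0.232 for Serpina1c (SD, n = 3). In DMSO they averaged 244 ± 37.9, 112 ± 26.2, 8.55 ± 6.27, 1.13 ± 0.405 and 0.775 ± 0.344 in the same gene order (SD, n = 3). In DMSO each neighbouring pair in this order was separated by more than its SDs except Serpina1d and Serpina1c. In NECA the SDs of the 3 leading copies were as large as the gaps between them, because the order changed in replicate 2, where Serpina1b was at 39.7 FPKM, Serpina1e at 3.26 and Serpina1a at 0.619. The authors' length for Serpina1b is that of all its annotated exons, 2415 bases or 1.73 times that of Serpina1d, which lowers its FPKM if only the short transcript was made.

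Set against the spread between replicates, no copy passed the test between NECA and DMSO. By the quasi-likelihood test of edgeR, adjusted after Benjamini and Hochberg over all 15847 tested genes, 0 of the 5 were called, where 0 genes (0%) were called in all. At an unadjusted p under 0.05 there were 0 of the 5, against 868 of all genes (5.48%), and DESeq2 called 0 of the 5, against 11 genes (0.0695%). All 5 had passed the filter on low counts. The log2 fold change of NECA over DMSO was -1.63 (SE 1.09) for Serpina1a, -0.84 (SE 1.05) for Serpina1e, 1.01 (SE 0.83) for Serpina1b, -0.59 (SE 0.45) for Serpina1d and -0.43 (SE 0.48) for Serpina1c, with edgeR adjusted p-values of 0.738 to 0.812. The sum, fitted as 1 row in place of the 5, differed by -0.92 (SE 0.50, edgeR adjusted p = 0.737). The family was put forward with results of these libraries known, so these are descriptions.

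Leaving out NECA replicate 2 moved Serpina1a, Serpina1b, Serpina1e and the sum most. Without NECA replicate 2 the log2 fold change was -1.04 (SE 0.21) for Serpina1a, -0.27 (SE 0.16) for Serpina1e, -0.50 (SE 0.53) for Serpina1b, -0.99 (SE 0.49) for Serpina1d, -0.44 (SE 0.59) for Serpina1c and -0.49 (SE 0.18) for the sum. Serpina1a then averaged 100.5 ± 0.844 CPM in NECA (SD, n = 2) against 208 ± 49.8 CPM in DMSO (SD, n = 3). In that fit edgeR again called 0 of the 5 and 0 genes in all, with an adjusted p of 0.848 for Serpina1a, while DESeq2 called Serpina1a (DESeq2 adjusted p = 0.00434), 1 of 32 genes called (0.22%). The NECA libraries then lay below all DMSO libraries in Serpina1a, Serpina1d and the sum, as in 12% of all genes. Serpina1b was then lower in NECA, with overlapping groups.

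**Figure D4:**
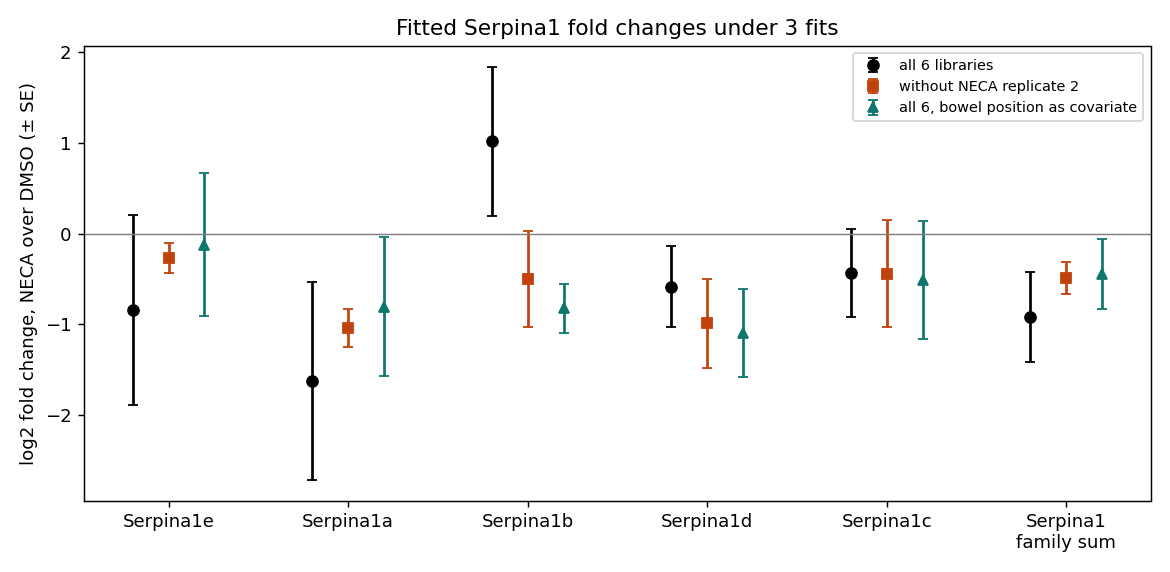
Fitted log2 fold change of NECA over DMSO (y axis, with SE bars) for each Serpina1 copy and their sum (x axis), with all 6 libraries (black), without NECA replicate 2 (orange) and with a bowel position score as covariate (green). Serpina1b is at 1.01 with all libraries and below 0 in both other fits, and Serpina1a is below 0 in all 3. The score is -2.37 in NECA replicate 2 and 2.20 to 4.72 in the other libraries. The orange and green fits are therefore not independent of each other.

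Several genes that mark the level of the bowel also set NECA replicate 2 apart. NECA replicate 2 had 1913 CPM of Fabp6, the ileal bile acid binding protein, against 0 and 149.6 CPM in NECA replicates 1 and 3 and 0.0558, 0.201 and 135 CPM in DMSO. The 3 libraries with Fabp6 above 100 CPM were the 3 with the most Serpina1b (96.8, 17.1 and 38.2 CPM). Onecut2, a transcription factor of the proximal bowel, was at 53.8, 0.0498 and 19.2 CPM in NECA and 86.9, 87.7 and 36.6 CPM in DMSO, and so was almost missing where Serpina1a and Serpina1e were. Lct, which encodes the milk sugar enzyme lactase, was at 98.2 CPM in NECA replicate 2 against 2241 and 2040 in NECA replicates 1 and 3 and 1986 to 2603 in DMSO. Onecut2 and Lct were picked from the lists after their values were seen. The ileal gene Clec2h was at 407, 559 and 460 CPM in NECA and 626, 661 and 450 CPM in DMSO, so NECA replicate 2 was not apart in it. Outside NECA replicate 2 the orders were not the same. Onecut2 was lower in DMSO replicate 3 than in NECA replicate 1 (36.6 against 53.8 CPM), while Serpina1e was higher (464 against 319.7 CPM).

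Over the whole lists, 14 of 14 proximal bowel genes were lower in NECA (median log2 fold change -0.63; -0.10 without NECA replicate 2) and 10 of 13 ileal genes higher (median 1.04; 0.18 without that library), where the median of all tested genes was -0.0080. The summed level of the proximal list was 32603, 2314 and 29728 CPM in NECA and 29235 to 33031 CPM in DMSO, and that of the ileal list 982, 3785 and 1452 CPM in NECA and 1141 to 1318 CPM in DMSO. Much of these sums came from single genes. Apoa4 alone was at 19430.5, 846 and 18077 CPM in NECA and 16775 to 20770 CPM in DMSO. Fabp6 alone was at 1913 CPM in NECA replicate 2. With edgeR 0 genes of either list passed, and with DESeq2 the proximal genes Ada (DESeq2 adjusted p = 0.00214) and Pdx1 (0.0131). With a position score (proximal minus ileal list) as covariate, Serpina1b differed by -0.83 (SE 0.27), Serpina1a by -0.81 (SE 0.77), Serpina1e by -0.12 (SE 0.79), Serpina1c by -0.51 (SE 0.65), Serpina1d by -1.10 (SE 0.48) and the sum by -0.45 (SE 0.38), with edgeR adjusted p-values of 0.996 each. The score was 3.90, -2.37 and 2.20 in NECA and 4.64, 4.72 and 2.48 in DMSO, and the part of bowel position in the Serpina1 values was not tested beyond this fit.

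**Figure D5:**
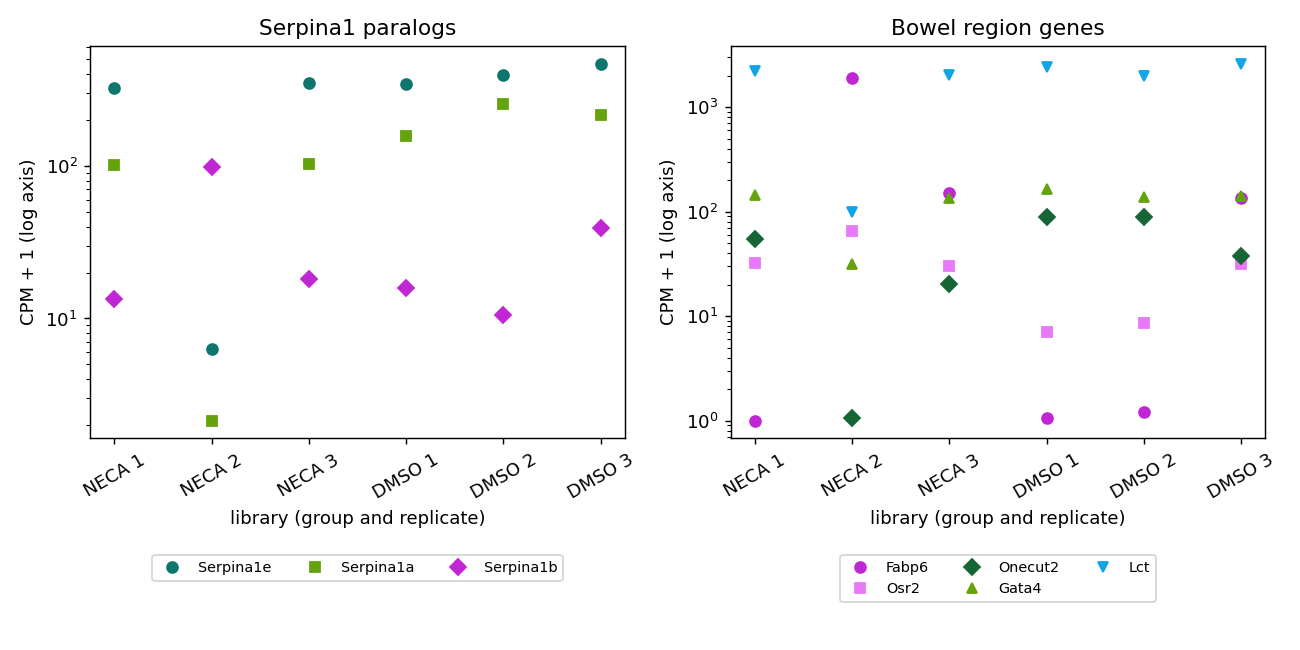
CPM plus 1 (y axis, log scale) in each library (x axis, NECA then DMSO) of 3 Serpina1 copies (left) and of genes that mark bowel region (right). In NECA replicate 2 Serpina1b and the ileal gene Fabp6 (1913 CPM) are high while Serpina1e, Serpina1a and the proximal genes Onecut2, Gata4 and Lct are low.

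Hepatocyte products differed widely in level. Ttr, which encodes the thyroid hormone carrier transthyretin, was at 170.4, 46.9 and 223 CPM in NECA and 98.2, 159 and 175 CPM in DMSO, lowest in NECA replicate 2. Alb, the albumin gene, had 215, 0 and 63 counts in NECA and 5, 13 and 31 in DMSO, and Ahsg, which encodes fetuin-A, had 24, 0 and 14 in NECA and 1, 2 and 3 in DMSO, and both had no count in NECA replicate 2. Other genes of the list were not low there. Fgb had 10, 160 and 25 counts in NECA and 0, 0 and 28 in DMSO. Afp was at 7.69, 10.4 and 7.87 CPM in NECA and 9.54, 5.69 and 12.9 CPM in DMSO. Alb, Ahsg and Fgb were named after their values were seen. Albumin was highest in NECA replicate 1, Fgb in NECA replicate 2 and Afp in DMSO replicate 3. Of the 20 hepatocyte genes listed 12 were tested, with a summed level of 2038 to 2528 CPM in NECA and 975 to 2108 CPM in DMSO, most of it from Cps1, a urea cycle enzyme also made in newborn gut. Their part in the Serpina1 values was not tested. Of the 12, 8 were higher and 4 lower in NECA (median 0.44), 0 passed with edgeR or DESeq2, Alb passed with DESeq2 without NECA replicate 2 (DESeq2 adjusted p = 0.0152), and Itih1 was at 0 in all libraries.

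The neutrophil proteases were at or near the limit of detection. Elane, neutrophil elastase, had 0, 0 and 1 counts in NECA and 0, 0 and 1 in DMSO, and Ctsg, cathepsin G, had 0, 1 and 0 in NECA and none in DMSO. Prtn3, a further neutrophil protease, had 6, 12 and 9 counts in NECA and 9, 9 and 8 in DMSO. Of 14 genes listed for neutrophil, mast cell and related serine proteases 8 were tested, 4 higher and 4 lower (median -0.029; without DMSO replicate 2, 1 higher and 8 lower, median -0.54), the most abundant being Dpp4, a membrane peptidase of enterocytes. Of 21 pancreatic enzymes 5 were tested, 1 higher and 4 lower (median -0.60; without DMSO replicate 1, 3 higher and 2 lower, median 0.34), among them the chymotrypsinogen gene Ctrb1 at 73.80, 0.349 and 74.001 CPM in NECA and 34.93, 20.008 and 57.70 CPM in DMSO. Cela1, a pancreatic-type elastase, was at 12.7, 4.29 and 25.9 CPM in NECA and 29.5, 34.4 and 31.4 CPM in DMSO. Of 11 tested epithelial surface proteases 3 were higher and 8 lower (median -0.092; 0.030 without NECA replicate 2), with St14, matriptase, at 227 to 292 CPM in NECA and 233 to 253 CPM in DMSO. No gene of these lists passed with edgeR or DESeq2.

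Other protease inhibitors were expressed in every library. Spint2, an inhibitor of membrane serine proteases, was at 675, 868 and 693 CPM in NECA and 593 to 795 CPM in DMSO. Spink1, a trypsin inhibitor, was at 601, 271 and 706 CPM in NECA and 477 to 666 CPM in DMSO, so its lowest value was also in NECA replicate 2, by a smaller step than in the antitrypsin copies. Of 22 tested inhibitors 8 were higher and 14 lower in NECA (median -0.19) and 0 passed. Of 20 other Serpina genes listed 3 were tested, 1 higher and 2 lower (median -0.35; 0.14 without NECA replicate 2, with 4 tested). Among them Serpina3g, related to antichymotrypsin, was at 10.8, 22.5 and 18.9 CPM in NECA and 26.7, 17.5 and 35.2 CPM in DMSO. The neighbouring Serpina1f had at most 12 counts in NECA and at most 3 in DMSO.

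Most genes listed for antitrypsin production were detected, but the transcription factor Onecut1 was at 0 in all libraries, and 4 to 5 of the 24 acute phase and interleukin-6 family genes were at 0 in each NECA library and 2 to 6 in each DMSO library. Creb3l3, a transcription factor of liver and small bowel, was at 1036, 269 and 864 CPM in NECA and 814, 638 and 806 CPM in DMSO, and so was lowest in NECA replicate 2. Hnf4a, a hepato-intestinal transcription factor, was at 821, 696 and 702 CPM in NECA and 685, 463 and 695 CPM in DMSO, so that NECA replicate 2 lay within the range of the others. Of 21 tested transcription factors of liver and gut 15 were higher and 6 lower (median 0.27). Among acute phase and interleukin-6 family genes, which include inducers of antitrypsin in liver, 8 were higher and 9 lower of 17 (median -0.00013), with Stat3 at 199 to 211 CPM in NECA and 199 to 206 CPM in DMSO. Of 25 genes for export from and quality control in the endoplasmic reticulum 15 were higher and 10 lower (median 0.11). Lman1, a cargo receptor for antitrypsin, was at 203, 141 and 192 CPM in NECA and 135, 117 and 170 CPM in DMSO. With edgeR and DESeq2 0 genes of these lists passed. Lman1 was named after its values were seen.

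Markers of other cells of the bowel are given for comparison. Of 12 enterocyte and epithelial genes 9 were higher and 3 lower (median 0.21), of 10 Paneth cell genes 9 higher and 1 lower (1.29; 0.58 without NECA replicate 2 and 2.74 without DMSO replicate 3), of 8 goblet cell genes 7 higher and 1 lower (0.49; -0.65 without NECA replicate 2), of 8 colon genes 4 higher and 4 lower (-0.12; -0.54 without it), of 6 tested neutrophil genes 3 higher and 3 lower (0.046) and of 12 macrophage genes 1 higher and 11 lower (-0.45). None of these genes passed with edgeR or DESeq2. DMSO replicate 1 also stood apart in some genes. The colon genes Car1 and Hoxb13, named after their values were seen, had 137 and 28 counts in it. In the other libraries Car1 had 0 to 2 counts and Hoxb13 had 0. Of the pancreatic enzymes 3 were at 0 in DMSO replicate 1, against 11 to 14 in each other library. The part of all these genes in the Serpina1 values was not tested.

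The genes whose levels were most like the family sum over the 6 libraries, by Pearson r of log2(CPM + 1) among named genes of at least 10 CPM, were Rtp4 (r = 0.997), Itm2b (0.995), Stk26 (0.992), Rhog (0.992) and Acp5 (0.991). Itm2b, which encodes a widespread membrane protein, was at 972, 384 and 1002 CPM in NECA and 1167, 1211 and 1274 CPM in DMSO. Among the most opposed genes were Uck2 (r = -0.995), Nle1 (-0.994), Mdn1 (-0.987) and Klf16 (-0.987). These values describe 6 libraries of which 1 lies far from the rest.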

How the data were processed

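RNA of newborn mouse intestine was sequenced in paired ends after SMARTer cDNA synthesis and PCR, per the labels' protocols. The submitters' processing notes name HISAT, StringTie, edgeR and the builds mm10 and GRCm38. The strand and multi-mapping settings were not stated there. The authors deposited raw whole-number counts of each gene and library, and beside each an FPKM value, per the file headers. Relative to Serpina1d, the deposited FPKM used the length of all annotated exons. Only counts were tested.

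Groups were taken from the sample titles. Genes were filtered with filterByExpr (minimum count 10, minimum total 15), scaled with TMM and tested with edgeR 4.0.16 (R 4.3.3) by the quasi-likelihood test, NECA against DMSO, two-sided, without covariates, Benjamini-Hochberg adjusted over all tested genes, threshold 0.05. The 5 Serpina1 rows were also replaced by their sum and refitted. SE is the fold change over the root of its F statistic. CPM of genes below the filter used TMM factors over all genes. DESeq2 1.42.0 was an alternative. Coding sequences and promoters were aligned with MAFFT 7.526. The script was tested on simulated counts.

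Members and lists were chosen with earlier results of these data known. From each list the 3 genes with the highest mean CPM could be named. Beside them are genes named after their values were seen, as stated. Epcam, Elane, Ctsg, Prtn3, Serpina1f and B430119L08Rik were also named outside that rule. A few genes that the rules would name are not reported here. The labels do not say whether the replicate numbers pair the libraries, and the values could not settle it.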

Additional observations from a re-analysis of the deposited data

How the results depend on the processing

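The direction and the side of the adjusted threshold of each Serpina1 copy and of the sum were kept under DESeq2 size factors, no low-count filter, the stricter filter (5 CPM in 3 libraries, which Serpina1c and Serpina1d did not pass), the replicate block, the DESeq2 test, the bowel position covariate and each library left out in turn, except for Serpina1b and Serpina1a as follows. Serpina1b was reversed without NECA replicate 2 (-0.50, and -0.49 with DESeq2) and with the position covariate (-0.83). Serpina1a was called with DESeq2 without NECA replicate 2 (-1.04, DESeq2 adjusted p = 0.00434), a combination chosen after seeing the data. Its edgeR adjusted p was 0.646 to 0.940 with each library left out. The cause was not tested.

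Leaving out each library in turn gave log2 fold changes of -1.23 to -0.49 for the sum, -2.04 to -1.04 for Serpina1a, -0.50 to 1.79 for Serpina1b (0.67 without DMSO replicate 2, 1.79 without DMSO replicate 3), -1.30 to -0.27 for Serpina1e, -0.99 to -0.29 for Serpina1d (highest without DMSO replicate 3, and -0.33 without NECA replicate 3) and -0.74 to -0.028 for Serpina1c (lowest without NECA replicate 3, highest without DMSO replicate 2). The count of genes called, 0 with edgeR, was 2 without the filter, 11 with DESeq2 and 32 with DESeq2 without NECA replicate 2. With the replicate block 0 genes were called, and the sum differed by -1.14, Serpina1a by -2.33, Serpina1e by -1.68 and Serpina1b by 0.49. Deviations from the group means correlated at 0.038, -0.19 and -0.048 between same-numbered libraries, and at -0.34 to 0.26 between libraries of unlike number. With 3 libraries a group and NECA replicate 2 far from the rest, these values cannot tell whether the numbers pair the libraries. Serpina1c and Serpina1d rest on 7 to 35 counts a library, and the size of difference detectable at that depth was not measured. Of the gene lists, the pancreatic median was -1.83 without the filter. With the position covariate the medians were 0.25 for Paneth cell, -0.94 for goblet cell, 0.057 for ileal and -1.07 for the other listed Serpina genes. The last was 0.46 without DMSO replicate 1 and 0.19 without DMSO replicate 2. The ileal genes are part of the score, so their small median largely follows from how the score was made.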

Other observations

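Further along the cluster, Gm8893, annotated as an unprocessed pseudogene on the same strand within the long Serpina1b locus (chromosome 12, 103817856 to 103822243, GRCm38), had 38, 0 and 50 counts in NECA and 78, 68 and 85 in DMSO. It was thus missing in the library where Serpina1a and Serpina1e were lowest and Serpina1b highest. The other pseudogenes between the copies, Gm17042, Gm17043, Gm6918, Gm8895 and Gm17198, had at most 1 count in any library. Serpina10, an inhibitor of coagulation factor Xa at the edge of the cluster, had 0, 90 and 8 counts in NECA and 7, 0 and 7 in DMSO, and so was highest in the same library as Serpina1b. These genes were chosen after their values were seen, and no test was made.

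The genes most like Serpina1b over the 6 libraries, by the same measure as for the family sum, were Farsb (r = 0.998), Larp7 (0.995), Dis3 (0.990), Icam1 (0.989) and Riok2 (0.988). Among those most like Serpina1e were Lztr1 (0.998), Fcgrt (0.998), Tm6sf2 (0.996) and Cst6 (0.996). Fcgrt, the receptor that carries milk antibodies across the suckling gut, was at 7454, 357 and 7832 CPM in NECA and 7077, 9094 and 8278 CPM in DMSO. These lists were added after the data were seen and describe 6 libraries only.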
